A study of Mus musculus with 9 samples.

Results

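The tight junction genes described here are 9 genes that code for proteins of the cell-to-cell seal: the claudins Cldn5, Cldn10 and Cldn12, the MARVEL-domain proteins Ocln (occludin) and Marveld2 (tricellulin), the immunoglobulin-like adhesion proteins Esam and F11r (JAM-A), and the cytoplasmic plaque proteins Tjp1 (ZO-1) and Cgn (cingulin). They were chosen by name from the junction genes that the table measures, so all 9 were among its 14477 genes. The choice was made with earlier results of these data known. RNA was sequenced from GFP-sorted cells of 2 neurogenic regions of the adult mouse brain, the hippocampal dentate gyrus (DG, n = 5 libraries) and the subventricular zone beside the lateral ventricle (SVZ, n = 4 libraries). All animals carried the Nestin-driven EGFP transgene of strain B6.Cg-Tg(Nes-EGFP)1Yamm, were housed under standard conditions and received no treatment, and the labels call them adult only. The sorted cells are labelled as Nestin-positive precursors. The sort rests on fluorescence from regulatory sequence of Nestin, a gene that is also known from pericytes and endothelial cells of brain vessels. The labels do not say whether libraries of a region came from separate animals or pools, so the p-values measure the spread between these libraries, which may be technical. Whether same-numbered DG and SVZ libraries share animals is likewise not known, and the main tests treat all libraries as unpaired.

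Tight junctions hold neighbouring cells together and limit what passes between them. Claudins form the strands of the seal and set which ions can cross it, occludin and tricellulin lie in the same membranes, and ZO-1 and cingulin tie the strands to the actin cytoskeleton. In the brain these proteins are best known from the endothelium of the blood-brain barrier, where Cldn5 is the main claudin, and from the choroid plexus epithelium. Several are also made outside barriers: Cldn10 transcripts are known from astrocytes, Cldn11 from the myelin of oligodendrocytes, and F11r from leukocytes.

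The 3 member claudins include both the smallest difference between the regions among the 9 genes (Cldn12) and a very large one (Cldn5), so the 250 bases before their annotated starts are shown. The sequences are from RefSeq on GRCm38.p6, read 5′ to 3′ on the gene's strand. Capitals mark any match on either strand to the ETS core AGGAAG or the Sp1 box GGGCGG. Cldn10 has 2 annotated starts, and reads counted per gene do not separate the transcripts from each.
Cldn5, chr16:18776597-18776846, plus strand: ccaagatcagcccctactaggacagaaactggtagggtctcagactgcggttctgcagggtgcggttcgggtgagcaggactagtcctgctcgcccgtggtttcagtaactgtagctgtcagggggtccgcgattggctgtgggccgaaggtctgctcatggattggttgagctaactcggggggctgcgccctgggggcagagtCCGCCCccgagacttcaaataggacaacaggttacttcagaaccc
Cldn10 distal start, chr14:118787621-118787870, plus strand: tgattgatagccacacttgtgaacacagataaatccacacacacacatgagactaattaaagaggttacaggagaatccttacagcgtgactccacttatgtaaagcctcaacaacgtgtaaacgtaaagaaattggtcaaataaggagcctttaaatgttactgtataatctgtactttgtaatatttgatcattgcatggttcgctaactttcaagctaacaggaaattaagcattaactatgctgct
Cldn10 proximal start, chr14:118854700-118854949, plus strand: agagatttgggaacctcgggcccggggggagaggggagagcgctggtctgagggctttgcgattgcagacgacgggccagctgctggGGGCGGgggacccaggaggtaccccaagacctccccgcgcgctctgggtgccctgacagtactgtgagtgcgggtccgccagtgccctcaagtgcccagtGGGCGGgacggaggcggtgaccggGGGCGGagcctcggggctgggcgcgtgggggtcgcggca
Cldn12, chr5:5514977-5515226, minus strand: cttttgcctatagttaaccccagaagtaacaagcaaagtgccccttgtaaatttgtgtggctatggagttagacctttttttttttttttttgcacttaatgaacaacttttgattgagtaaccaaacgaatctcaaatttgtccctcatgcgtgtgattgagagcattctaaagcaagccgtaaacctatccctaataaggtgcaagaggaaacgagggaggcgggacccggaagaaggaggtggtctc
The Cldn5 window had a GC content of 59.6% and 1 Sp1 box, and the proximal Cldn10 window had 72.4% and 3 boxes. Neither box was found in the distal Cldn10 window (GC content 36.0%) or in the Cldn12 window shown (GC content 42.0%). Both other Cldn12 windows, which overlap, held the same 1 Sp1 box. A window was given for 8 of the 9 members, in 13 windows in all. GGGCGG was present in 11 of these 13 windows, at least once for each of the 8 members, where windows of 1 gene can overlap, against 32.7% of all 32851 windows of the same length. These 11 windows had a GC content of 50.4% to 72.4% and 10 to 22 CpG pairs. Over all windows the medians were 52.4% and 6. The part of base content in the count of this GC-rich box was not tested. AGGAAG was present in 2 of the 13, both of Marveld2, against 29.5% of all windows. CACGTG (an E-box) was present in 1, that of Cgn, against 6.02%, and TATAAA was present in 2, both of Marveld2, against 12.4%. The 2 Marveld2 windows overlap and share the same AGGAAG and TATAAA sites. All of the matches describe letters in the windows and no binding was measured.

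All 9 tight junction genes were higher in DG than in SVZ libraries at an adjusted p under 0.05 (limma with Benjamini-Hochberg adjustment over all 14477 genes), and none was lower. The 2 sorted populations differed at most genes, since 32.9% of all genes were called higher in DG and 33.7% lower. For all 9 members the lowest DG library exceeded the highest SVZ library, as for 29.7% of all genes, whereas in 28.3% of all genes the groups were separated the other way. The median log2 fold change of the 9 members was 1.76, beside -0.07 for all genes. Cldn5 entered the table through the DG libraries: each gene listed exceeded 1 CPM in at least 3 libraries, and Cldn5 did so in 5 of 5 DG but in 1 of 4 SVZ libraries. A gene listed only through 1 region can hardly be other than higher there, so no limma p is given below for Cldn5 or for other such genes. Permutation tests on ratios and shares of Cldn5 are given, but they carry the same limit and are a description. The remaining 8 members exceeded 1 CPM in at least 3 libraries of each region. The members were chosen among measured genes and with earlier results of these data known, so their counts are a description. In bulk RNA of this kind, fewer cells of a type and less RNA per cell cannot be told apart.

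**Figure D1:**
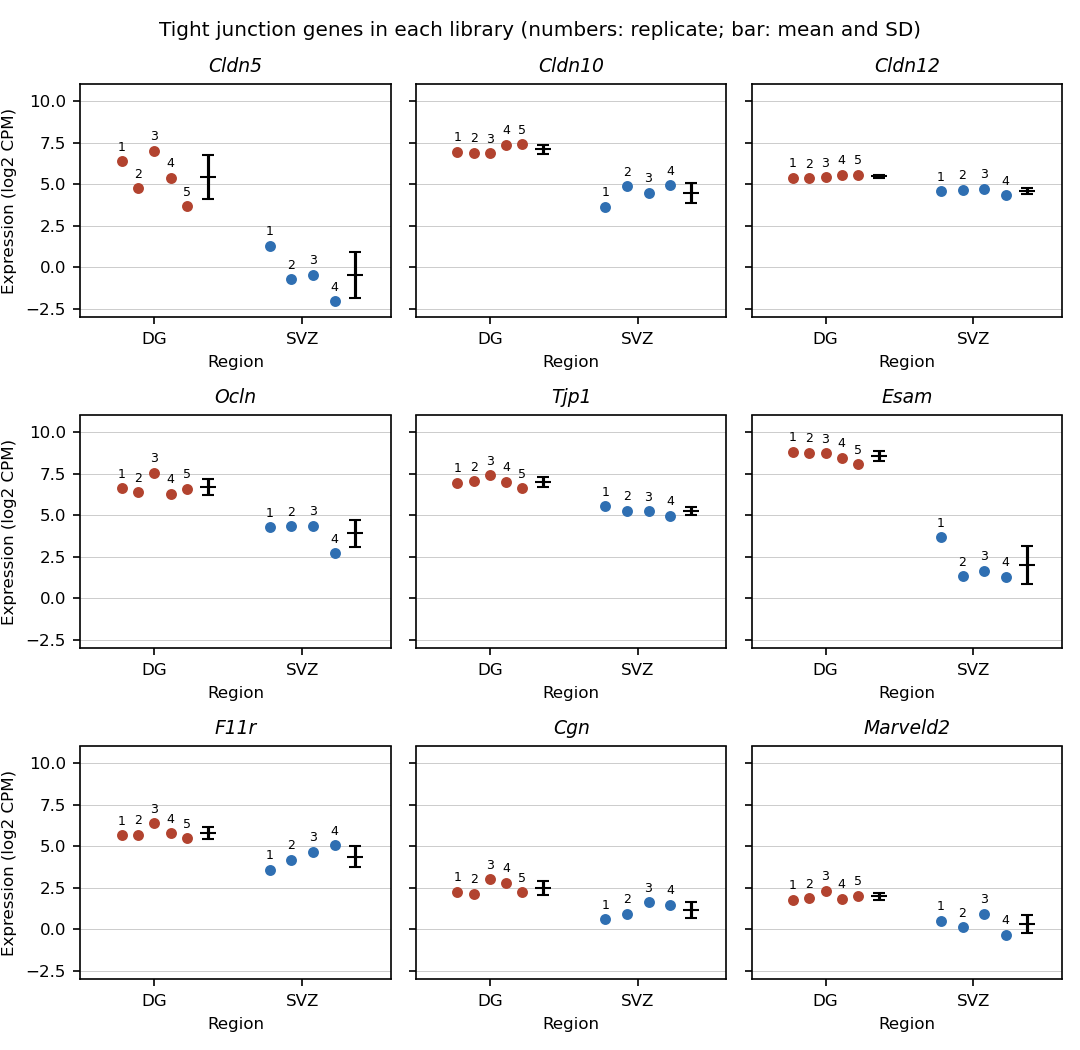
Expression of the 9 tight junction genes in log2 CPM, with a point for each library (numbered by replicate) and the mean and SD beside them, for DG (left in each panel) and SVZ (right). Every DG point lies above every SVZ point in each panel. The means of the regions lie farthest apart for Esam and Cldn5 and closest for Cldn12.

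Among the claudins, Cldn5, the main strand-forming claudin of brain endothelium (chr16:18776847-18778262, plus strand, mm10), differed most. Its expression was 6.38, 4.77, 7.01, 5.38 and 3.67 log2 CPM in DG libraries 1 to 5 and 1.31, -0.72, -0.46 and -2.03 log2 CPM in SVZ libraries 1 to 4. All SVZ values were below all DG values, but the DG values themselves spanned 10.1-fold, with DG 3 highest and DG 5 lowest. The log2 fold change was 5.92 ± 0.73 (SE), and 0.946% of all genes had one as large. It rested on 524 to 4682 reads in DG and on 78, 18, 22 and 7 reads in SVZ libraries 1 to 4, so the SVZ level has the wider counting error.

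Cldn10, a claudin of ion-selective strands (chr14:118787908-118875489, plus strand), was at 6.95, 6.88, 6.86, 7.38 and 7.40 log2 CPM in the DG libraries and at 3.63, 4.86, 4.48 and 4.93 log2 CPM in the SVZ libraries. The DG libraries lay within 1.46-fold of each other, and SVZ 1 was the lowest of its region. This was a 6.14-fold difference, with a log2 fold change of 2.62 ± 0.25 (SE; limma adjusted p = 4.06e-06). Cldn12, a claudin found in many tissues (chr5:5489537-5514958, minus strand), was the member with the smallest difference. Its values were 5.40, 5.36, 5.43, 5.56 and 5.56 log2 CPM in DG and 4.56, 4.68, 4.72 and 4.33 log2 CPM in SVZ. Both regions were tight, with ranges of 1.15-fold in DG and 1.31-fold in SVZ, and the log2 fold change of 0.89 ± 0.11 (SE) was past the threshold (limma adjusted p = 3.66e-05).

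The MARVEL proteins are occludin, which lies along the whole strand, and tricellulin, which seals the points where 3 cells meet. Their genes are neighbours: Ocln (chr13:100496507-100552718) and Marveld2 (chr13:100595957-100616971) lie on the minus strand with 43238 bases and no protein-coding gene between them. Ocln was at 6.62, 6.38, 7.56, 6.30 and 6.60 log2 CPM in DG libraries and at 4.27, 4.32, 4.38 and 2.71 log2 CPM in SVZ libraries. DG 3 stood above the other DG libraries and SVZ 4 below the other SVZ libraries. The log2 fold change of Ocln was 2.77 ± 0.36 (SE; limma adjusted p = 4.33e-05), or 6.84-fold. Marveld2 was far less abundant, at 1.79, 1.87, 2.33, 1.85 and 2.03 log2 CPM in DG against 0.53, 0.12, 0.93 and -0.33 log2 CPM in SVZ. The extremes were again DG 3 and SVZ 4 at the outer ends. Its log2 fold change was 1.66 ± 0.28 (SE; limma adjusted p = 2.85e-04), from 115 to 182 reads per DG library and 25 to 59 reads per SVZ library.

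Esam, an adhesion protein of endothelial junctions and platelets (chr9:37528078-37538319, plus strand), had the largest difference of the 9. It was at 8.81, 8.76, 8.73, 8.46 and 8.05 log2 CPM in the DG libraries and at 3.67, 1.32, 1.66 and 1.30 log2 CPM in the SVZ libraries. The DG libraries were close together, while SVZ 1 held several times the level of the other SVZ libraries. The log2 fold change was 6.58 ± 0.42 (SE; limma adjusted p = 2.59e-07), and 0.373% of all genes had one as large. F11r (chr1:171437535-171464603, plus strand), whose product JAM-A lies in the junctions of endothelia and epithelia and on leukocytes, differed less. It was at 5.67, 5.69, 6.38, 5.77 and 5.48 log2 CPM in DG and at 3.59, 4.19, 4.67 and 5.06 log2 CPM in SVZ. The groups did not overlap, and SVZ 4 came closest to the DG libraries. The log2 fold change of F11r was 1.42 ± 0.27 (SE; limma adjusted p = 8.08e-04), or 2.68-fold.

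Of the plaque proteins, Tjp1, the ZO-1 scaffold that binds claudins and occludin from within the cell (chr7:65296165-65527781, minus strand), was at 6.94, 7.03, 7.42, 7.03 and 6.62 log2 CPM in DG and at 5.54, 5.26, 5.22 and 4.97 log2 CPM in SVZ. The groups were separated by more than the range within either one. Its log2 fold change was 1.76 ± 0.16 (SE; limma adjusted p = 2.98e-06), or 3.38-fold. Cgn, whose product cingulin binds ZO-1 and myosin (chr3:94760069-94786492, minus strand), was low in both regions. It was at 2.25, 2.15, 3.02, 2.80 and 2.22 log2 CPM in DG and at 0.59, 0.94, 1.62 and 1.48 log2 CPM in SVZ, with 158 to 295 reads per DG library and 47 to 96 reads per SVZ library. The log2 fold change of 1.33 ± 0.28 (SE) was past the threshold (limma adjusted p = 0.00153). Folds of 2 or more were not rare in these data, since 23.1% of all genes were at least 2-fold higher in DG, and 8 of the 9 members were among them. Folds of 16 or more, which Cldn5 and Esam had, were shared by 3.83% of all genes.

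Levels can be compared between genes only per length, and CPM per kilobase of annotated exon gave a different order in each region. In DG libraries Esam was highest at 134 ± 26.8 CPM per kilobase (SD, n = 5 libraries), above every other member in every DG library. Cldn10 (53.5 ± 10.3), Cldn5 (41.4 ± 33.2), Ocln (25.9 ± 10.7), F11r (21.4 ± 5.62) and Tjp1 (16.8 ± 3.37 CPM per kilobase) followed, and each neighbouring pair among these 5 overlapped in range. Cldn12 came next at 10.4 ± 0.683 CPM per kilobase, with Marveld2 (1.16 ± 0.190) and Cgn (0.956 ± 0.277) lowest and overlapping. In SVZ libraries Cldn10 (9.09 ± 3.18) and F11r (8.35 ± 3.46 CPM per kilobase; SD, n = 4 libraries) led, followed by Cldn12 (5.65 ± 0.657), Tjp1 (4.92 ± 0.801) and Ocln (3.94 ± 1.61). Esam was 6th there at 1.81 ± 1.76, and Cldn5 was 7th at 0.695 ± 0.703 CPM per kilobase, followed by Cgn (0.381 ± 0.122) and Marveld2 (0.378 ± 0.140). Each neighbour in the SVZ order overlapped the next in range. The distance between libraries bears on Cldn5 most: its DG levels ran from 8.99 CPM per kilobase in DG 5, under the Cldn12 level there, to 90.8 in DG 3.

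The 9 genes did not vary together within a region. DG 3 was the highest DG library for 6 members, Cldn5, Ocln, Tjp1, F11r, Cgn and Marveld2, but the lowest for Cldn10. DG 5 was lowest for Cldn5, Tjp1, Esam and F11r and highest for Cldn10 and Cldn12. In SVZ, library 1 was highest for Cldn5, Tjp1 and Esam and lowest for Cldn10, F11r and Cgn, while library 4 was lowest for 6 members and highest for Cldn10 and F11r. Cldn5 in DG 5 deviated from the DG mean by -1.77 log2 units, and Esam there by -0.51. The range of Cldn5 within DG, 10.1-fold, was wider than that of any of 12 endothelial markers, which ran from 1.37-fold for Slco1c1 to 3.48-fold for Eng. Within SVZ this was not so: Cldn5 again spanned 10.1-fold, but Tie1 spanned 15.9-fold and Ly6c1 10.5-fold.

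**Figure D2:**
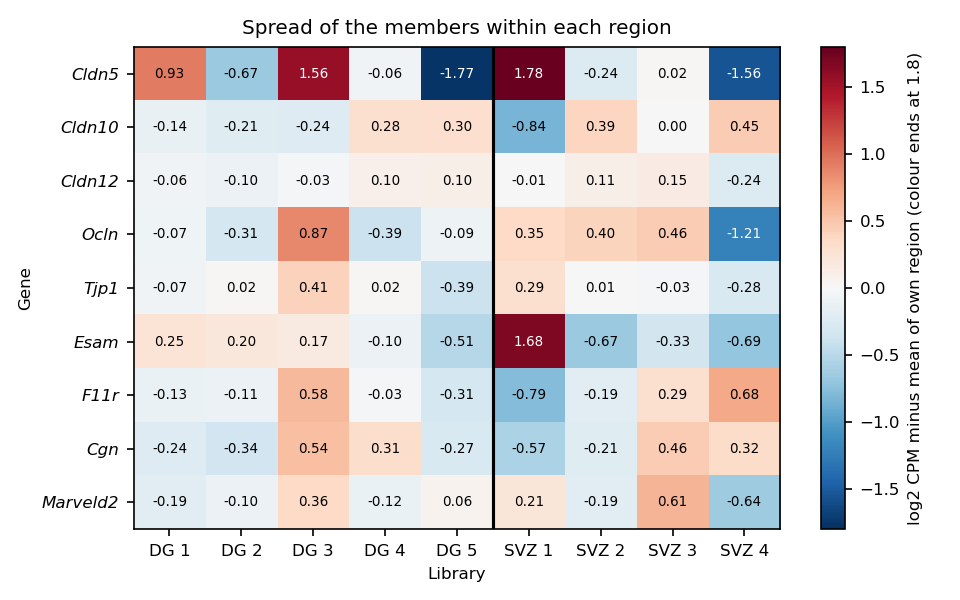
Deviation of each member from the mean of its own region, in log2 units, for DG libraries (left of the line) and SVZ libraries (right). Cldn5 has the widest spread in both regions, from -1.77 in DG 5 to 1.56 in DG 3 and from -1.56 in SVZ 4 to 1.78 in SVZ 1, and Esam reaches 1.68 in SVZ 1.

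Markers of 5 cell types were higher in DG as the members were, while those of other types were lower, mixed or not called. The marker counts stand beside 32.9% of all genes called higher in DG and 33.7% called lower. The summed level of 12 endothelial markers was 1068 to 2067 CPM in DG and 47.6 to 73.7 CPM in SVZ libraries, with DG 3 and SVZ 1 highest in their regions, and 12 of 12 were higher in DG. Pericyte markers summed to 5467 to 11336 CPM in DG and 52.2 to 140 CPM in SVZ (8 of 8 higher), fibroblast markers to 646 to 1386 CPM in DG and 24.7 to 86.0 CPM in SVZ (6 of 6 higher). Astroglial markers summed to 16478 to 24994 CPM in DG and 1715 to 3337 CPM in SVZ (6 of 6 higher), and oligodendrocyte precursor markers to 668 to 1579 CPM in DG and 31.8 to 105 CPM in SVZ (5 of 5 higher). Every marker of these 5 lists was higher in DG, but 7 endothelial, 2 pericyte and 3 fibroblast markers reached 1 CPM in 3 libraries of DG alone. The lists share genes: Pdgfra is in the fibroblast and precursor lists and Cspg4 in the pericyte and precursor lists. Pdgfra made up 66.5% to 89.2% of the fibroblast sum in DG and 75.3% to 89.9% in SVZ, and without it that sum was 131 to 267 CPM in DG and 4.06 to 8.65 CPM in SVZ. It also made up 64.3% to 74.7% of the precursor sum in DG and 59.4% to 73.7% in SVZ. Of 5 mature oligodendrocyte markers, which bear on Cldn11, 3 were higher, 1 was lower and 1 was not called, with sums of 2115 to 3936 CPM in DG and 1206 to 2489 CPM in SVZ. Epithelial markers went the other way or varied: 5 of 5 ependymal markers were lower in DG (7.96 to 19.4 CPM in DG, 82.9 to 221 CPM in SVZ), and of 4 measured choroid plexus markers 3 were lower and 1 was not called (3.54 to 183 CPM in DG, 7.90 to 19.4 CPM in SVZ). The choroid plexus sum of 183 CPM was that of DG 2, and the other DG libraries had at most 26.9 CPM. This sum was mostly Ttr, at 7.48 log2 CPM in DG 2, where the other measured choroid plexus markers were at most 1.81 log2 CPM. Microglial markers summed to 190 to 625 CPM in DG and to 171 to 934 CPM in SVZ. Of these 6 markers, 2 were lower in DG, near the share of all genes, and 4 were not called. Neuroblast markers were lower in DG for 4 of 4 (3403 to 4612 CPM in DG, 10222 to 14184 CPM in SVZ). Among markers called lower in DG, 1 ependymal, 2 choroid plexus and 1 neuroblast marker reached 1 CPM in 3 libraries of SVZ alone. As a check of the labelled cell type, Nes was present in every library, at 5.89 to 6.99 log2 CPM in DG and 6.87 to 7.61 log2 CPM in SVZ, and of 4 precursor markers 3 were lower in DG. No listed marker that was measured was at 0 reads in any library. The part these cell types have in the level of each member was not tested.

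The members were also set against endothelial marker reads in the same library. Since these reads were themselves many-fold higher in DG, a ratio shows only whether a member differed more or less than the marker sum did. Esam had more reads per 100 endothelial marker reads in DG than in SVZ, Cldn5 had a difference that did not pass the test, and the other 7 members had fewer in DG. Esam had 34.8, 37.1, 20.5, 33.0 and 22.0 reads per 100 marker reads in DG libraries 1 to 5 and 17.3, 4.00, 6.59 and 4.37 in SVZ libraries 1 to 4. That is a log2 difference of 2.10 (exact permutation test over libraries, two-sided, p = 0.0159, the smallest possible; adjusted over the 9 members p = 0.0179). Cldn5 had 6.42, 2.33, 6.22, 3.91 and 1.05 reads per 100 in DG and 3.32, 0.935, 1.46 and 0.387 in SVZ. These ranges overlapped, and the log2 difference of 1.51 did not pass the exact permutation test (adjusted p = 0.111).

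The log2 differences of the other 7 were -1.71 for Ocln, -1.87 for Cldn10, -2.73 for Tjp1, -2.80 for Marveld2, -3.06 for F11r, -3.15 for Cgn and -3.60 for Cldn12, each with every DG library below every SVZ library (exact permutation test, adjusted p = 0.0179 each). These 7 members thus differed less between the regions than the marker sum did. Of the 12 markers, 7 were listed through DG alone, and the median log2 fold change of the 12 was 6.23. Lower ratios in DG therefore follow from the smaller fold changes of these 7 members. The higher ratio of Esam follows in the same way from its larger fold change. The p-values of these 7 members and of Esam, here and with other endothelial denominators, are no separate support. Ocln per 100 endothelial marker reads was 7.13 to 9.13 across the 5 DG libraries and 11.7 to 43.6 across the 4 SVZ libraries. Tjp1 was at 8.16 to 12.2 in DG and 56.5 to 78.3 in SVZ.

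The marker sum in SVZ was mostly 1 gene. Slco1c1, a thyroid hormone transporter of brain endothelium that astrocytes are also known to make, held 14.8% to 23.2% of the endothelial marker reads in DG libraries and 33.9%, 85.3%, 77.6% and 82.2% in SVZ libraries 1 to 4. Without it, in a comparison chosen after seeing the data, the log2 differences were 0.41 for Esam (exact permutation test, adjusted p = 0.179) and -0.17 for Cldn5 (adjusted p = 0.841). Esam then had 24.1 to 45.8 reads per 100 marker reads in DG and 24.5 to 29.5 in SVZ, and Cldn5 had 1.35 to 7.93 in DG and 2.17 to 6.55 in SVZ. With the geometric mean of all 12 markers as the denominator the Esam difference was 0.83 (adjusted p = 0.0179) and that of Cldn5 was 0.24 (adjusted p = 0.635). The call for Esam was lost without Slco1c1, where both genes overlapped between regions on this scale. For the other 7 members the log2 differences without Slco1c1 ran from -3.40 for Ocln to -5.28 for Cldn12 (exact permutation test, adjusted p = 0.0204 each). Over astroglial marker reads the Ocln difference was -0.15 and no longer passed (exact permutation test, adjusted p = 0.794), while that of Cldn5 was 3.07 and passed (adjusted p = 0.0357). Cldn5 was listed through DG alone, which limits this last test. The endothelial denominator without Slco1c1 was 284 to 1554 reads per SVZ library and 29883 to 64156 reads per DG library, so SVZ ratios carry the larger counting error.

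**Figure D3:**
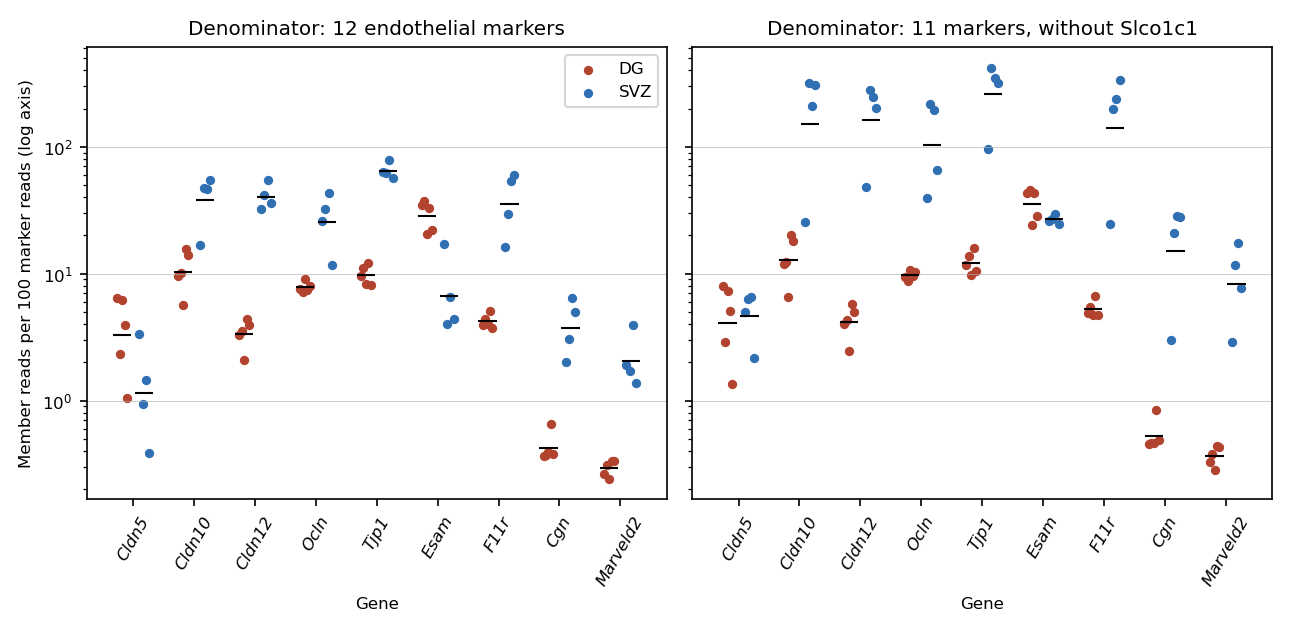
Reads of each member per 100 endothelial marker reads (log axis), for DG (left of each pair) and SVZ (right) libraries, with all 12 markers and with 11 markers after leaving out Slco1c1. Lines are geometric means. Esam and Cldn5 overlap between regions in the right panel, and the 7 other members have every DG point below every SVZ point in both panels.

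The makeup of the claudins differed as well. Of 9 measured claudins, Cldn11, the claudin of myelin, had the largest mean share of reads per kilobase, 39.6% ± 10.4 in DG (SD, n = 5) and 56.7% ± 8.19 in SVZ (SD, n = 4). Cldn5 took 24.7%, 14.3%, 44.5%, 17.1% and 4.59% in DG libraries 1 to 5, against 6.19%, 0.899%, 1.06% and 0.274% in SVZ libraries 1 to 4. DG 5 was below SVZ 1, so the groups overlapped, and the mean difference was 18.9 percentage points (exact permutation test, two-sided, p = 0.0317, adjusted over 3 claudins p = 0.0476). The listing of Cldn5 through DG alone limits this test too. Cldn12 took 5.72% ± 1.18 in DG and 13.8% ± 4.72 in SVZ, with no overlap (exact permutation test, p = 0.0159, adjusted p = 0.0476), although its level was higher in DG. Cldn10 took 29.3% ± 7.68 in DG and 20.4% ± 3.32 in SVZ, a difference that did not pass (exact permutation test, p = 0.0952) but did so without length correction, at 12.9 points (adjusted p = 0.0317). The adjusted p of Cldn5 and Cldn12 was above 0.05 when any single library other than DG 5 was left out, at 0.0536 to 0.107 in the exact permutation test, with differences of 13.1 to 20.6 points for Cldn5 and -9.87 to -6.04 points for Cldn12. With so few libraries the smallest p is 0.0286 without a DG library and 0.0357 without an SVZ library, before adjustment. Without an SVZ library no call could therefore pass unless all 3 claudins reached the smallest p, so its loss there says little.

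**Figure D4:**
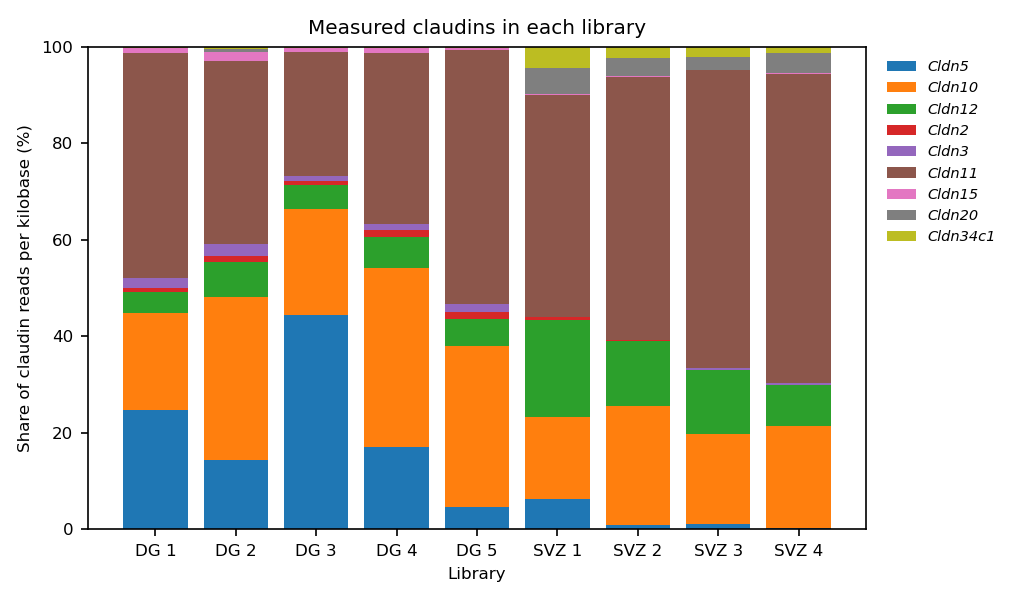
Share of each of 9 measured claudins in the claudin reads per kilobase of each library (%), DG libraries left and SVZ libraries right. Cldn5 is between 4.59% and 44.5% in DG and at most 6.19% in SVZ, while the Cldn12 share is lower in every DG library than in any SVZ library.

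Genes with the most similar pattern over the 9 libraries were found by the root mean square difference of log2 CPM, after each gene was centred on its own mean, among genes that averaged 3 log2 CPM or more. This measure includes the difference between the regions. The closest genes to Esam were Slc22a8 (0.26), an organic anion transporter, Thbd (0.27), the thrombin receptor thrombomodulin, and Emcn (0.30), the endothelial sialomucin endomucin. For Cldn5 they were farther off, with Sod3 (0.66), the extracellular superoxide dismutase, Myh11 (0.72), the smooth muscle myosin, and Thbd (0.74). Sod3 shared the wide range of Cldn5 in DG at 10.7-fold, with a deviation of -2.16 log2 units in DG 5. Cldn10 was closest to Ntsr2 (0.13), a neurotensin receptor, Prex2 (0.15) and Gpld1 (0.16), and Ocln to Ahnak (0.23), Tgm2 (0.27) and Slc2a1 (0.29), the glucose transporter GLUT1. Tjp1 was closest to Nrip3 (0.16), Iqsec1 (0.16) and Cbfa2t3 (0.17), Marveld2 to Pltp (0.17), Itpkb (0.20) and Synm (0.20), and F11r to Asph (0.19), Ptprd (0.25) and Sat1 (0.28). Cldn12 was closest to Cpt2 (0.049), Hexim1 (0.063) and Mccc2 (0.063). Cgn was closest to another member, F11r (0.21), followed by Tmc6 (0.22) and Lgr4 (0.24). F11r and Cgn were thus the most alike pair of members, whereas Cldn5 and Esam, each nearer to the other than to any of the remaining 7, were 0.87 apart.

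Other junction genes included both directions. Their counts stand beside 32.9% of all genes called higher in DG and 33.7% called lower. Of 18 other claudins listed, 6 were measured, with 4 higher in DG, 2 lower and a median log2 fold change of 3.16. Of these 6, Cldn2, Cldn3 and Cldn15 reached 1 CPM in 3 libraries of DG alone and Cldn20 in SVZ alone, which left Cldn11 (log2 fold change 1.58) higher and Cldn34c1 lower among genes listed through both. Cldn2, a pore-forming claudin, was at 2.41 to 3.19 log2 CPM in DG and -5.11 to -0.75 in SVZ (log2 fold change 5.60 ± 0.77, SE). Cldn3 was at 1.41 to 2.63 log2 CPM in DG and -4.05 to -2.23 in SVZ (log2 fold change 4.99), and Cldn15 was at 1.02 to 2.55 in DG and -3.45 to -2.03 in SVZ (4.74). Cldn20 was at -5.11 to -0.99 log2 CPM in DG and -0.23 to 0.59 in SVZ (log2 fold change -3.92 ± 0.77, SE). Cldn34c1 was lower (-1.08, limma adjusted p = 0.00154), but it belongs to a family of near copies among which reads may be split. Few reads, with libraries at 0 for Cldn2 and Cldn20, make these values depend on the prior count. With a prior of 5 reads or of 0.25 read the log2 fold change was 4.50 or 6.29 for Cldn2, 4.02 or 5.32 for Cldn3, 3.92 or 4.99 for Cldn15 and -2.52 or -4.93 for Cldn20.

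Of 8 measured other junction membrane genes, 6 were higher, 1 was lower and Cxadr was not called, with a median of 1.34. Among the 6 higher, Lsr and Igsf5 were listed through DG alone. The junctional adhesion genes Jam2 (log2 fold change 1.70 ± 0.11, SE, limma adjusted p = 3.55e-07) and Jam3 (1.52) rose in DG, and Clmp was lower (-0.995, limma adjusted p = 0.0111). Igsf5 had a library at 0 reads, and its log2 fold change of 5.02 was 3.63 with a prior of 5 reads and 5.85 with 0.25 read. Of the 31 measured plaque and polarity genes, 7 were higher (22.6%), 11 lower (35.5%) and 13 not called, with a median of -0.19, so neither share was far from that of all genes. Of these, 2 higher genes were listed through DG alone and 1 lower gene through SVZ alone. Cgnl1, which codes for the cingulin relative paracingulin and was listed through DG alone, was at 6.01, 5.66, 6.17, 5.43 and 4.82 log2 CPM in DG and 0.46, 0.08, -0.34 and -1.86 log2 CPM in SVZ (log2 fold change 6.03 ± 0.44, SE), beside 1.33 for Cgn. Mpp5 (0.56) and Lin7a (0.99), both of polarity complexes, were higher too. Mpdz, a multi-PDZ scaffold that binds claudins, was lower in DG, with a mean of 4.71 log2 CPM against 6.27 log2 CPM in SVZ (log2 fold change -1.55 ± 0.17, SE, limma adjusted p = 1.31e-05), as were the polarity genes Crb1 (-1.15) and Lin7c (-0.54).

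Of 13 adherens junction genes, 7 were higher (53.8%), 3 lower (23.1%) and 3 not called, with a median of 0.41. The 3 that rose with the smallest adjusted p were those known from endothelial junctions: Pecam1 (log2 fold change 5.42), Cdh5 or VE-cadherin (6.08, listed through DG alone) and Ptprb (4.81). Those that fell were Afdn, which links nectins to actin (-1.02), Ctnnb1 or beta-catenin (-0.68) and Nectin1 (-0.50, limma adjusted p = 0.0407). The call for Nectin1 was lost without DG 4, DG 5, SVZ 1 or SVZ 3 (limma adjusted p = 0.0568 to 0.119).

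**Figure D5:**
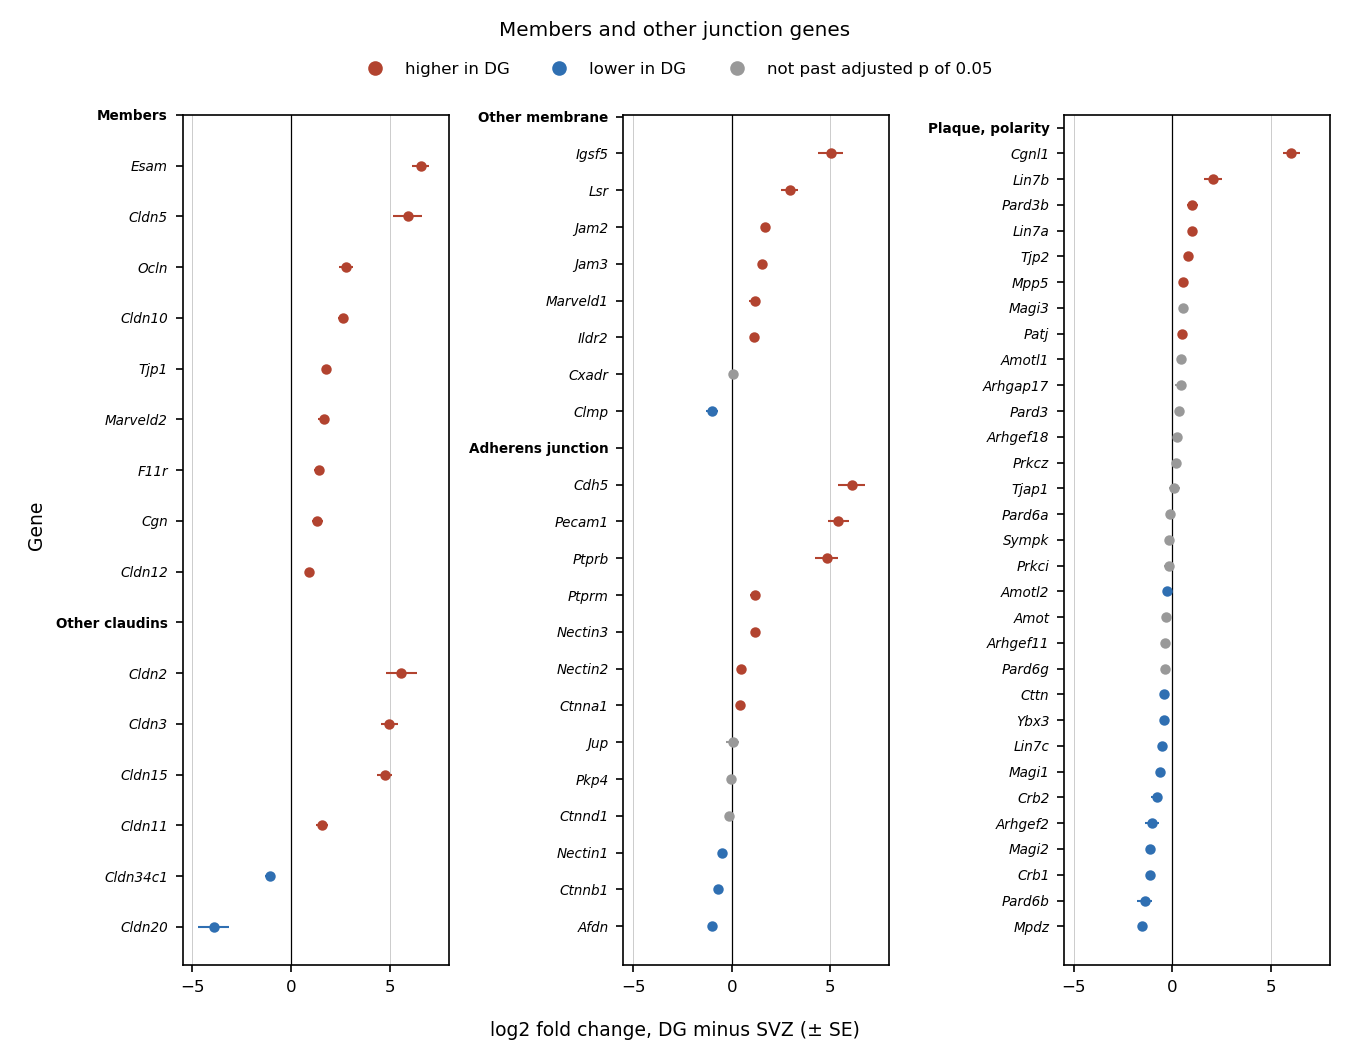
The log2 fold change (DG minus SVZ, with SE) of the 9 members and of the measured genes of 4 other junction lists, coloured by whether limma called them higher in DG, lower in DG or neither. All 9 members lie right of 0, while the plaque and polarity genes spread to both sides around a median of -0.19.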

How the data were processed

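RNA was sequenced from 9 sorted libraries, with cDNA made from a poly-dT primer by template switching and amplified, per the labels' protocols, without strand marks or molecular identifiers, so sampling limits cover counting error only. The authors used STAR, edgeR and mm10, per the submitters' processing notes; versions and the gene counter are not stated there. The table as deposited holds log2 CPM with a prior count of about 1 read, as read from the values: reads recovered from it were whole for 100% of values (tolerance 0.001), with totals of 33627909 to 41164044 in DG and 31126803 to 32528255 in SVZ. This log scale understates changes of genes with few reads.

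Symbols and exon lengths came from GENCODE M21 (14428 of 14477 identifiers matched). All genes were fitted with limma (version 3.58.1, in R 4.3.3), using its mean-variance trend, region as the only term and adjusted p under 0.05. Since the unit is log2, no count test was the main result. Single ratios and shares used exact permutation tests over 126 splits (scipy 1.17.1). Named genes are the members, up to 3 called genes per list and direction by adjusted p, and the 3 most similar genes per member. Cldn11, Lsr, Slco1c1, Eng, Tie1, Ly6c1, Pdgfra, Cspg4, Cxadr, Nes, Ttr and the ranges of Sod3 were added after their values were seen. The members and lists were chosen with earlier results of these data known. Library pairs of each region differed beyond counting error (lowest chi-square per degree of freedom 19.4). The fit was tested on simulated data. Alternatives changed the prior count, scaling, filter, weights, block, denominators, lengths and libraries.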

Additional observations from a re-analysis of the deposited data

Results flagged for a closer look

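Of 42 sets of library values tested for a library far from the others of its region, 5 were marked, and about 1 in 20 would be by chance. Ocln was highest in DG 3, at 7.56 log2 CPM, and lowest in SVZ 4, at 2.71 log2 CPM, each far from the other libraries of its region. Esam was highest in SVZ 1 at 3.67 log2 CPM, the SVZ library in which endothelial, pericyte and fibroblast marker sums were also highest; their part in this value was not tested. Cgn per 100 endothelial marker reads was highest in DG 4 at 0.651. The Cldn5 share of claudin reads was highest in SVZ 1 among SVZ libraries, at 6.19%.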

How the results depend on the processing

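All 9 members were higher in DG under each alternative fitted on the whole table, with a largest adjusted p of 0.00562 (limma, for Cgn). Their log2 fold changes ranged from 5.40 to 6.51 for Cldn5, 6.34 to 7.14 for Esam, 2.37 to 2.93 for Ocln and 0.81 to 0.94 for Cldn12. With a filter at a mean of 3 log2 CPM, fewer genes are tested: 6 members remained, all higher, with 1 other claudin higher and 0 lower, 3 membrane genes higher and 0 lower, and 3 plaque genes higher. With the replicate number as a block, 0 membrane genes and 7 plaque genes were lower, and Clmp was lost (limma adjusted p = 0.0663). DG 5 has no SVZ library of its number, so the log2 fold changes of this fit were those without DG 5. Deviations of same-numbered libraries correlated at -0.045, -0.173, 0.007 and -0.107. Such correlations cannot tell whether same-numbered libraries share animals or a sort. Nectin1 was lost under trimmed mean scaling (limma adjusted p = 0.0591). Over astroglial instead of endothelial marker reads, the log2 difference of Cldn5, listed through DG alone, was 3.07 and now passed (exact permutation test, adjusted p = 0.0357). That of Ocln, -0.15, no longer did (exact permutation test, adjusted p = 0.794). Without Slco1c1 that of Esam, 0.41, was lost (adjusted p = 0.179). The share of Cldn10 without length correction differed by 12.9 points and passed (adjusted p = 0.0317). Leaving out single libraries, the Cldn5 share differed by 13.1 to 23.0 points and that of Cldn12 by -9.87 to -6.04, with both calls kept only without DG 5. Without an SVZ library neither call could pass unless all 3 claudins reached the smallest possible p. The cause of these shifts was not tested. Depth limits Cldn5 in SVZ most, at 7 to 78 reads.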

Other observations

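Transcripts of Cldn5 had a GC content of 60.5%, against a median of 48.8% over 9747 genes. In DG 5, where Cldn5 deviated from the DG mean by -1.77 log2 units, the 185 genes with transcripts of 60% GC or more had a median deviation of -0.08, and the 12 endothelial markers deviated by between -1.21 (Eng) and 0.22 (Ly6c1).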
